A study of Mus musculus with 20 samples.

Results

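The genes described here encode the nuclear subunits of complexes II to V of the mitochondrial respiratory chain, together with cytochrome c, in 5 regions of the mouse heart. They were taken by the gene symbol of the array: *Sdha* to *Sdhd* for complex II, symbols starting with *Uqcr* and *Cyc1* for complex III, *Cycs* for cytochrome c, symbols starting with *Cox4* to *Cox8* for complex IV, and symbols starting with *Atp5* for complex V. This gave 47 of the 16593 genes on the array, namely 3 of complex II, 9 of complex III, 1 of cytochrome c, 18 of complex IV and 16 of complex V. The regions were the sinoatrial node (SA), both atria (LA on the left, RA on the right) and both ventricles (LV and RV). RNA of each was hybridised to 4 Illumina MouseRef-8 v2 bead arrays. The mice were C57/BL6 males, 5 to 10 weeks old, and the labels name no treatment. V stands for the mean of LV and RV, and atria for the mean of LA and RA. Per the study's methods each LV was cut into pieces and mice were pooled for an SA sample. Nothing in the labels states that the arrays of a region came from separate animals, so the p-values measure the spread between arrays, which may be technical.

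The respiratory chain sits in the inner mitochondrial membrane. Complex II (succinate dehydrogenase) passes electrons from succinate to ubiquinone, complex III passes them on to cytochrome c, and complex IV (cytochrome c oxidase) hands them to oxygen. The proton gradient built on the way drives complex V, the ATP synthase. Several small subunits of complex IV exist as a muscle isoform, the main form in heart and skeletal muscle, and a general isoform found in most tissues. *Cox6a2* and *Cox6a1*, *Cox7a1* and *Cox7a2*, and *Cox8b* and *Cox8a* are such pairs, each muscle gene given first.

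The promoters of 2 of these pairs are shown, since the results set the muscle gene of a pair against its general partner. The promoter table used here has no entry named *Cox6a2*. Each is 1 promoter from RefSeq (GRCm38.p6), from 250 bases before to 50 bases after the annotated start, written 5′ to 3′ on the gene's strand. Capitals mark matches, on either strand, to an E-box (CANNTG), an ETS motif (CCGGAAG), an ERR motif (TNAAGGTCA), the NRF1 motif or the MEF2 motif. *Cox7a1* is at chr7:30183921-30184220 on the + strand, *Cox7a2* at chr9:79759804-79760103 on the - strand, *Cox8b* at chr7:140900397-140900696 on the - strand and *Cox8a* at chr19:7217567-7217866 on the - strand.
Cox7a1: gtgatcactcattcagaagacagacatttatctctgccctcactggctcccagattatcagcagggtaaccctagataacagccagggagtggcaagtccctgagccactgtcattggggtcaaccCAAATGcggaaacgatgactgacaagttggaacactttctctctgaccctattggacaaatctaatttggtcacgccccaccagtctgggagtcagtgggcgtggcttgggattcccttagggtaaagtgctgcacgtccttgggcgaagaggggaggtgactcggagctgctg
Cox7a2: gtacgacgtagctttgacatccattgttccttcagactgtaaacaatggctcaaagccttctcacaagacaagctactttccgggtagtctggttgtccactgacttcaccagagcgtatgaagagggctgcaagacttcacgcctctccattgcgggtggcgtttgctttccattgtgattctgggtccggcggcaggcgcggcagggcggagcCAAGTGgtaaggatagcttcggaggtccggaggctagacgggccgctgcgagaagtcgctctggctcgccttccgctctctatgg
Cox8b: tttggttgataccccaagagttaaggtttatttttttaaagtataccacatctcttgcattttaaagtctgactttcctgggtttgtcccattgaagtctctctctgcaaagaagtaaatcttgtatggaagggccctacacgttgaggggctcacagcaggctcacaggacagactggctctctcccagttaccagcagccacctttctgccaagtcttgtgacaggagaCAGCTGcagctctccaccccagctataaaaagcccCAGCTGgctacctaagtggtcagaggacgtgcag
Cox8a: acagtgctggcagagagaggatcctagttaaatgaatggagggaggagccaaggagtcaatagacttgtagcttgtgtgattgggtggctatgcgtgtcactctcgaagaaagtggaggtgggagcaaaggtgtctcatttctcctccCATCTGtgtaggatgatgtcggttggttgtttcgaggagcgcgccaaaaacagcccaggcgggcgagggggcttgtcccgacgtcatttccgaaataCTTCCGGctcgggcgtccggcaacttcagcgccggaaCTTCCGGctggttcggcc
The muscle gene *Cox8b* held 2 E-boxes and no ETS motif, and its general partner *Cox8a* held 1 E-box and 2 ETS motifs. *Cox7a1* and *Cox7a2* held 1 E-box each and none of the other motifs. An E-box was in 72.3% of all 32851 promoters of this length, an ETS motif in 8.86%, an ERR motif in 1.28%, an NRF1 motif in 4.6% and a MEF2 motif in 3.19%. Of the 47 genes, 35 matched the promoter table, with 38 promoters. Among these 38, 27 held an E-box (71.1%), 12 an ETS motif (31.6%), 9 an NRF1 motif (23.7%), 2 an ERR motif (5.26%) and 0 a MEF2 motif. These matches are a description of the letters in the window.

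The deposited values are z-scores per array: on each array the 25697 probes have mean 0 and SD 1. Differences between regions are therefore in units of the z-score and cannot be read as folds, and the level of one probe was not set against that of another. LV replicate 4 stood apart from all other arrays. Its mean Spearman correlation over all probes was -0.022 with the other LV arrays and -0.045 with the other regions, and its highest score of 8.44 was that of *Cox7c*, a complex IV subunit. It was left out, and all values are over the 19 other arrays unless stated. LV replicate 3 correlated at 0.86 with the arrays of other regions, where LV replicates 1 and 2 reached 0.94 and 0.93, and its lowest score was -1.91. It was kept, and calls between the ventricles and the other regions that turned on it are given with and without it. The title of RV replicate 2 reads as RA while its other labels read right ventricle. The mean of 5 atrial muscle genes was 1.95 on this array, 0.54 to 2.30 on all 7 ventricular arrays used and 3.54 to 4.40 on the 8 atrial arrays. In SA, the node markers *Shox2* (1.22 to 1.42) and *Isl1* (0.83 to 1.38) lay above every other array, whose highest values were 0.55 and -0.33. Below, the values of the arrays of a region are given in ascending order.

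Of the 47 genes, 41 had a z-score above 0 on at least 1 array and were tested among 7618 genes by limma, with Benjamini-Hochberg adjustment over all genes. The 6 others, *Uqcrfs1*, *Uqcrq*, *Cox4i2*, *Cox7b2*, *Cox8c* and *Atp5k*, were below 0 on all 19 arrays. *Cox4i2*, *Cox7b2* and *Cox8c* are isoforms known from lung or testis. *Uqcrfs1* encodes the Rieske protein, without which complex III cannot work. A score below 0 lies below the mean of the array and does not show that a transcript is absent. *Cox6b2*, an isoform known from testis, was above 0 on 2 arrays. *Sdha* was not among the symbols of the array as used here.

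**Figure D1:**
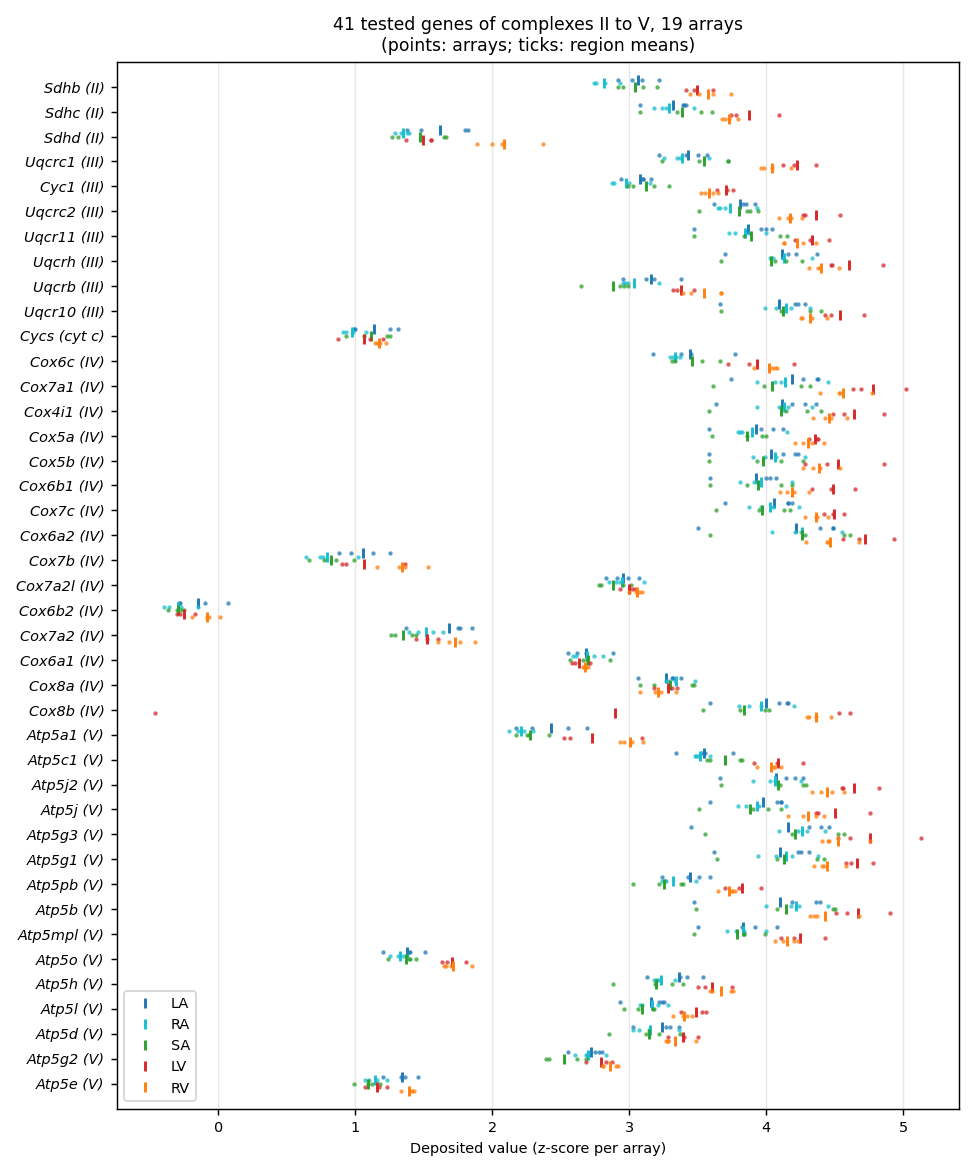
Deposited values (x axis, z-score per array) of the 41 tested genes of complexes II to V (rows, complex in brackets) on 19 arrays. Points are arrays and ticks are region means; *Uqcrc1*, *Cyc1* and *Sdhb* show LV and RV to the right of all other arrays, and *Cox8b* shows LV replicate 3 at -0.46.

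Most of the tested genes lay near the top of the score range, where the arrays differed from each other. The highest score of an array was 3.74 on LA replicate 1 and 3.79 on SA replicate 1, 4.12 to 4.62 on the 10 other arrays of the atria and SA, and 4.51 to 5.15 on the 7 ventricular arrays. Between 11 and 20 of the 41 genes were within 0.5 of that highest score on each of the 19 arrays. The median of the 41 genes was 3.22 and 3.24 on LA replicate 1 and SA replicate 1, 3.28 to 3.6 on the other atrial and SA arrays, and 3.8 to 4.09 on the ventricular arrays. The ventricular arrays and the others did not overlap in this median. Each comparison was therefore also run after quantile normalization, which gives all arrays the same distribution of scores and so the same top. For the comparisons between regions both counts are stated, and for many of the genes both differences.

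**Figure D2:**
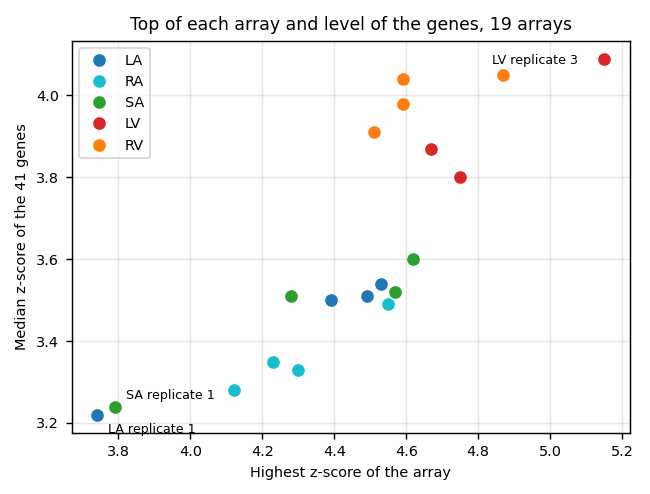
Median z-score of the 41 tested genes (y axis) against the highest z-score of the same array (x axis), 1 point per array, 19 arrays in 5 regions. LA replicate 1 and SA replicate 1 have the lowest values on both axes, and the 7 ventricular arrays lie between 3.8 and 4.09 on the y axis, above all others.

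Over the 5 regions, 30 of the 41 tested genes differed by limma's F test, as did 65.2% of all genes tested. Atria had lower scores than V for 30 of the 41 tested genes (73.2%) and higher scores for 0, while 24.8% of all genes tested were lower and 34.6% higher. The median difference was -0.39 over the 41 genes and 0.04 over all genes. The called differences ran from -0.73 for *Uqcrc1* to -0.28 for *Cox7b*. Leaving out each of the 19 arrays in turn gave 28 to 33 called genes, and 28 of the 30 were lower in every one of these fits. All 3 genes of complex II, all 7 of complex III, 8 of 15 of complex IV, 12 of 15 of complex V and not the 1 of cytochrome c were lower. After quantile normalization 17 genes were lower and 1, *Cox8a*, was higher, while 30.6% of all genes were lower and 30.1% higher. These 17 were all among the 30, and held 3 of 3 genes of complex II, 5 of 7 of complex III, 2 of 15 of complex IV and 7 of 15 of complex V. Bright genes in general moved with the scaling. Of the 258 other genes with a mean score above 3, 60.1% were lower in atria and 9.3% higher by the z-scores. After quantile normalization 37.2% of these were lower and 36.8% higher. Of the 30 respiratory chain genes above 3, 26 were lower by the z-scores and 13 after quantile normalization. Of the 11 at 3 or less, 4 were lower under both scalings, namely *Atp5a1*, *Atp5o*, *Cox7b* and *Sdhd*.

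**Figure D3:**
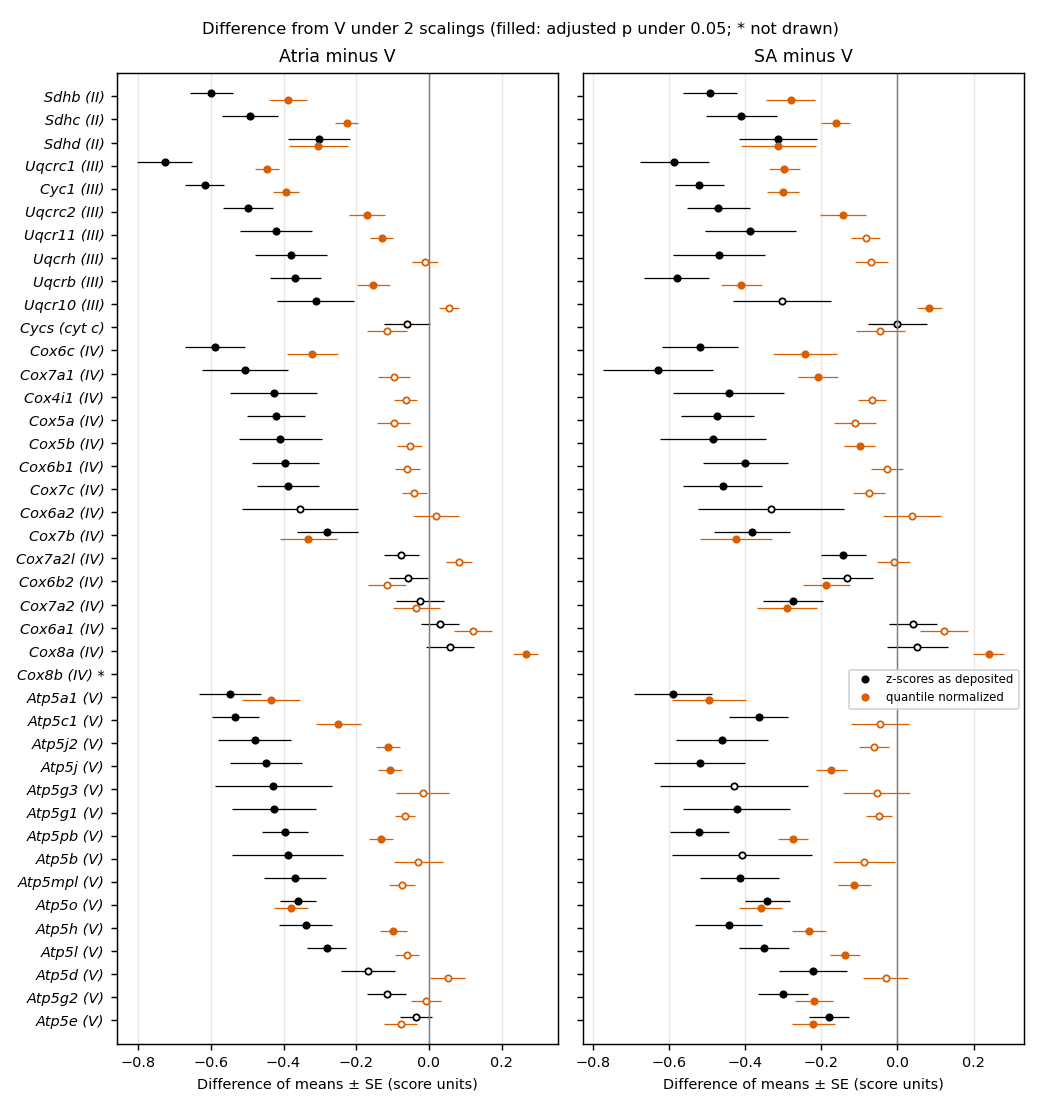
Difference from V (x axis, mean ± SE in score units) of atria (left) and SA (right) for the tested genes except *Cox8b*, whose SE of 0.48 or more would not leave the other bars readable. Black points are z-scores as deposited, orange points the same after quantile normalization, and filled points have an adjusted p under 0.05; *Uqcrc1*, *Cyc1*, *Sdhb*, *Atp5a1* and *Atp5o* stay below 0 in both colours, while *Cox4i1*, *Cox5b*, *Cox6b1* and *Cox7c* come within 0.10 of 0 in orange.

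Complex II was lower in atria in all of its tested genes. *Sdhb*, its iron-sulfur subunit, read 2.92, 3.02, 3.09 and 3.22 in LA, 2.74, 2.76, 2.82 and 2.93 in RA, 2.92, 2.95, 3.1 and 3.2 in SA, 3.41, 3.47 and 3.61 in LV, and 3.44, 3.51, 3.61 and 3.74 in RV. Every ventricular array was above every atrial and SA array. The difference of atria from V was -0.60 ± 0.06 (SE; limma, adjusted p = 8.18e-08), and -0.39 ± 0.05 after quantile normalization. *Sdhc*, a membrane anchor of the complex, read 3.08, 3.39, 3.4 and 3.41 in LA, 3.18, 3.24, 3.27 and 3.47 in RA, 3.08, 3.35, 3.52 and 3.6 in SA, 3.74, 3.78 and 4.09 in LV, and 3.68, 3.7, 3.73 and 3.79 in RV. Its arrays separated in the same way, with a difference of -0.49 ± 0.08 (limma, adjusted p = 2.6e-05), and of -0.23 ± 0.03 after quantile normalization. *Sdhd*, the other membrane anchor, differed by -0.30 ± 0.08 (limma, adjusted p = 0.00497), and by -0.30 ± 0.08 after quantile normalization. Here, however, LV lay with the atria and RV above them, as given with the left and right chambers.

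All 7 tested genes of complex III were lower in atria than in V by the z-scores. *Uqcrc1*, which encodes a core protein, had the largest of the called differences and read 3.22, 3.41, 3.5 and 3.57 in LA, 3.25, 3.35, 3.37 and 3.58 in RA, 3.24, 3.51, 3.72 and 3.72 in SA, 4.12, 4.2 and 4.36 in LV, and 3.96, 3.98, 4.04 and 4.18 in RV. The lowest ventricular array was above the highest atrial and SA array, and the difference of atria from V was -0.73 ± 0.08 (limma, adjusted p = 1.68e-07). *Cyc1*, the cytochrome c1 subunit that hands electrons to cytochrome c, read 2.94, 3.1, 3.1 and 3.16 in LA, 2.87, 2.89, 3.0 and 3.15 in RA, 2.99, 3.03, 3.18 and 3.29 in SA, 3.64, 3.71 and 3.76 in LV, and 3.52, 3.55, 3.61 and 3.65 in RV. Here too the ventricles did not overlap the other regions, and atria differed by -0.62 ± 0.05 (limma, adjusted p = 1.46e-08). After quantile normalization the differences were -0.45 ± 0.03 for *Uqcrc1* and -0.39 ± 0.04 for *Cyc1*. The second core protein gene, *Uqcrc2*, differed by -0.50 ± 0.07 and by -0.17 ± 0.05 under the 2 scalings. The small subunits *Uqcrb* and *Uqcr11* were lower under both, while *Uqcrh* and *Uqcr10*, lower by the z-scores, differed by -0.01 ± 0.04 and 0.05 ± 0.03 after quantile normalization.

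*Cycs*, which encodes cytochrome c, read 0.99, 1.0, 1.25 and 1.31 in LA, 0.91, 0.93, 0.98 and 1.08 in RA, 0.93, 1.06, 1.23 and 1.25 in SA, 0.87, 1.11 and 1.2 in LV, and 1.14, 1.16, 1.18 and 1.22 in RV. RV lay above RA, and every other pair of regions overlapped. Atria differed from V by -0.06 (95% interval -0.19 to 0.07), and SA from V by 0.00 (-0.16 to 0.16). Scaled by median and median absolute deviation, *Cycs* was lower in atria (limma, adjusted p = 0.00682). So was every other tested gene under that scaling except *Cox6b2*, *Cox8a* and *Cox8b*. These values are of 1 probe. Another *Cycs* probe, of lower mean and not used, stood highest in RV, with means of 0.77 in LA, 0.52 in RA, 0.66 in SA, 0.62 in LV and 1.14 in RV. Its differences were not tested.

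In complex IV, 8 of the 15 tested genes were lower in atria by the z-scores, and 2 of these, *Cox6c* and *Cox7b*, also after quantile normalization. Of all genes tested, 24.8% and 30.6% were lower under the 2 scalings, so the second count is a smaller share than that of all genes. *Cox6c*, a small subunit, read 3.17, 3.38, 3.45 and 3.77 in LA, 3.3, 3.32, 3.34 and 3.37 in RA, 3.31, 3.33, 3.53 and 3.66 in SA, 3.72, 3.87 and 4.2 in LV, and 3.91, 4.04, 4.06 and 4.08 in RV. LA replicate 2 at 3.77 overlapped the lowest LV array, and all other atrial and SA arrays were below the ventricles. The difference of atria from V was -0.59 ± 0.08 (limma, adjusted p = 6.49e-06), and -0.32 ± 0.07 after quantile normalization. *Cox7b*, another small subunit, differed by -0.28 ± 0.08 and -0.33 ± 0.08, with LV replicates 1 and 2 at 0.90 and 0.93 among the atrial values and LV replicate 3 at 1.36 with RV (1.16 to 1.53). The bright subunits *Cox4i1*, *Cox5a*, *Cox5b*, *Cox6b1* and *Cox7c* differed by -0.39 to -0.43 as z-scores and by -0.10 to -0.04 after quantile normalization, and were called under the first scaling only. *Cox7a2l*, known for its part in joining complexes III and IV, differed by -0.08 (95% interval -0.18 to 0.03). Scaled by median and median absolute deviation it was lower (limma, adjusted p = 0.0079), as were nearly all tested genes.

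The muscle isoforms *Cox6a2*, *Cox7a1* and *Cox8b* read near the top of the arrays, where the scaling matters most. *Cox6a2* read 3.5, 4.39, 4.49 and 4.49 in LA, 4.04, 4.21, 4.25 and 4.55 in RA, 3.59, 4.28, 4.57 and 4.61 in SA, 4.56, 4.68 and 4.93 in LV, and 4.29, 4.44, 4.45 and 4.68 in RV. LV lay above all atrial arrays and RV overlapped them, with LA replicate 1 and SA replicate 1 lowest. The difference of atria from V was -0.35 ± 0.16 (limma, adjusted p = 0.0638), which did not pass the test. It passed without LA replicate 2 (adjusted p = 0.0474), LA replicate 4 (0.0474), RA replicate 1 (0.0453) or SA replicate 1 (0.027). It also passed with the replicate number as a block (0.0489), while after quantile normalization it was 0.02 (0.811). When scaled by median and median absolute deviation it passed (0.0114), but so did every tested gene except *Cox6b2*, *Cox8a* and *Cox8b*. That scaling also called the general partner *Cox6a1* lower (0.022), so it does not set *Cox6a2* apart. *Cox6a1* read 2.55, 2.62, 2.68 and 2.88 in LA, 2.59, 2.61, 2.74 and 2.81 in RA, 2.57, 2.66, 2.69 and 2.86 in SA, 2.58, 2.6 and 2.71 in LV, and 2.66, 2.67, 2.68 and 2.7 in RV. Its difference was 0.03 (95% interval -0.08 to 0.14), and all regions overlapped. Taken within each array, *Cox6a2* minus *Cox6a1* was 0.88, 1.51, 1.81 and 1.94 in LA, 1.43, 1.47, 1.66 and 1.74 in RA, 0.93, 1.71, 1.71 and 1.92 in SA, 1.96, 1.97 and 2.35 in LV, and 1.61, 1.74, 1.78 and 2.02 in RV. LV lay above every atrial and SA array and RV overlapped them, and LA replicate 1 and SA replicate 1 were again lowest. The difference of this pair between atria and V was -0.39 ± 0.15 (limma, adjusted p = 0.0365). After quantile normalization it was -0.10 ± 0.09 (adjusted p = 0.335), and without LV replicate 3 it was -0.32 ± 0.16 (adjusted p = 0.089). Without LA replicate 1 it was -0.28, and it also missed the threshold without any 1 of LA replicate 3, RA replicate 2, RA replicate 3, RV replicate 3 or RV replicate 4. Between SA and RA the pair differed by -0.01 (95% interval -0.44 to 0.43).

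*Cox7a1* read 3.74, 4.27, 4.37 and 4.38 in LA, 3.93, 4.06, 4.11 and 4.45 in RA, 3.61, 3.98, 4.25 and 4.32 in SA, 4.63, 4.69 and 5.02 in LV, and 4.39, 4.53, 4.54 and 4.77 in RV. Atria differed from V by -0.51 ± 0.12 (limma, adjusted p = 0.00132), with RA replicate 1 at 4.45 inside the RV range. *Cox7a2* read 1.37, 1.75, 1.76 and 1.85 in LA, 1.39, 1.46, 1.57 and 1.64 in RA, 1.26, 1.29, 1.41 and 1.44 in SA, 1.44, 1.52 and 1.6 in LV, and 1.6, 1.68, 1.76 and 1.87 in RV. LA and RA overlapped both ventricles, and atria differed from V by -0.03 (95% interval -0.16 to 0.11). Scaled by median and median absolute deviation, *Cox7a2* was lower in atria (limma, adjusted p = 0.00861), as were nearly all tested genes. Within arrays, *Cox7a1* minus *Cox7a2* was 1.89, 2.52, 2.62 and 3.0 in LA, 2.42, 2.47, 2.72 and 2.88 in RA, 2.17, 2.57, 2.99 and 3.03 in SA, 3.17, 3.19 and 3.42 in LV, and 2.67, 2.71, 2.77 and 3.17 in RV. LV lay at or above every other array, the highest RV array matching the lowest LV array, and RV overlapped the atria and SA. Atria differed from V in this pair by -0.48 ± 0.15 (limma, adjusted p = 0.0105), and the call held with each of the 19 arrays left out in turn. After quantile normalization the difference was -0.06 ± 0.06 (adjusted p = 0.383), while *Cox7a1* itself differed by -0.10 ± 0.04 (adjusted p = 0.0637). Between SA and RA the pair differed by 0.07 (95% interval -0.36 to 0.50).

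The pair *Cox8b* and *Cox8a* turned on a single array. *Cox8b* read 3.59, 4.09, 4.15 and 4.16 in LA, 3.8, 3.87, 3.96 and 4.2 in RA, 3.54, 3.81, 3.99 and 4.02 in SA, -0.46, 4.53 and 4.61 in LV, and 4.3, 4.31, 4.36 and 4.47 in RV. The value of -0.46 was that of LV replicate 3, and every other ventricular array was above every atrial and SA array. *Cox8a* read 3.06, 3.31, 3.32 and 3.38 in LA, 3.27, 3.28, 3.33 and 3.48 in RA, 3.08, 3.18, 3.46 and 3.47 in SA, 3.18, 3.31 and 3.35 in LV, and 3.08, 3.19, 3.23 and 3.34 in RV, with all regions overlapping. With LV replicate 3, *Cox8b* differed between atria and V by 0.35 ± 0.51 (limma, adjusted p = 0.573). Without it, the difference was -0.49 ± 0.10 (adjusted p = 0.000252), and that of SA from V was -0.625 ± 0.11 (adjusted p = 0.000147). Within arrays, *Cox8b* minus *Cox8a* was 0.53, 0.71, 0.83 and 0.85 in LA, 0.52, 0.6, 0.63 and 0.72 in RA, 0.46, 0.53, 0.55 and 0.63 in SA, -3.81, 1.3 and 1.35 in LV, and 1.08, 1.13, 1.17 and 1.22 in RV. Without LV replicate 3 the atria and SA did not overlap the ventricles, and the difference of atria from V was -0.56 ± 0.05 (limma, adjusted p = 3.33e-08). Of the 3 pairs, this was the one that also passed the test after quantile normalization of the same 18 arrays, at -0.435 ± 0.04 (adjusted p = 3.76e-08), where *Cox8b* alone differed by -0.173 ± 0.03. The other pairs differed by -0.0851 (adjusted p = 0.442) and -0.0881 (adjusted p = 0.224) in that fit. *Cox8a* differed between atria and V by 0.06 ± 0.07 as z-scores (adjusted p = 0.463) and by 0.27 ± 0.03 after quantile normalization of the 19 arrays (adjusted p = 2.13e-06), so its own call rested on the scaling.

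**Figure D4:**
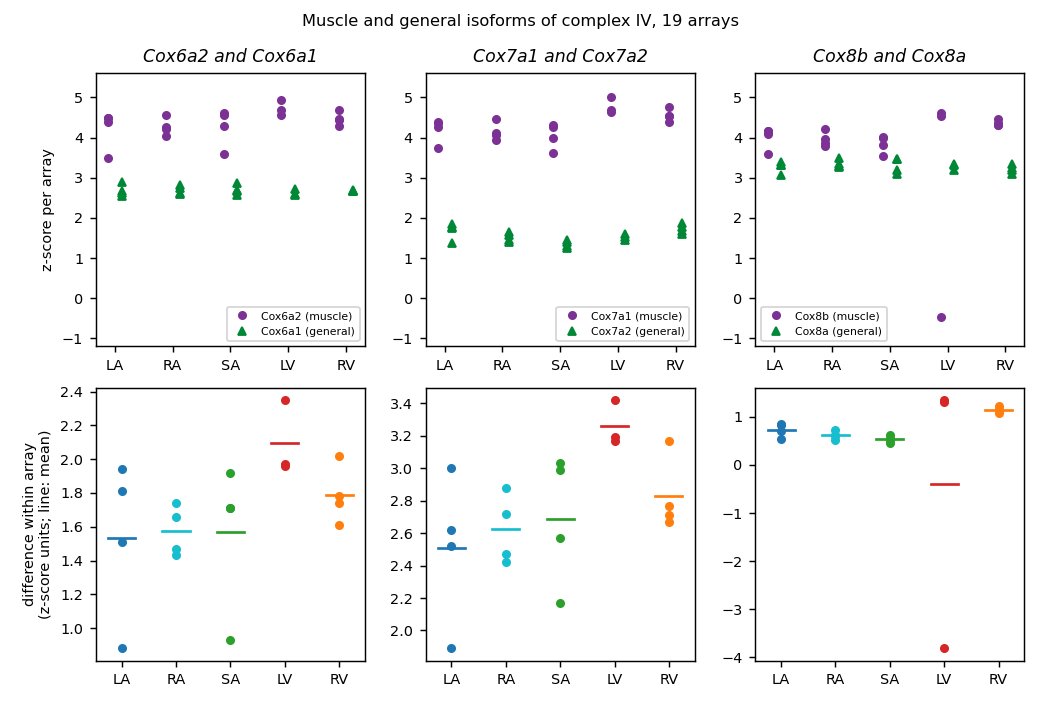
Upper row, z-scores per array of the muscle (circles) and general (triangles) isoform in 5 regions, whose heights are probe levels that are not comparable with each other; lower row, muscle minus general within each array (z-score units, line at the region mean). 19 arrays are drawn; the lowest LV points of *Cox8b* are LV replicate 3, and without it LV and RV lie above LA, RA and SA in the lower right panel.

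Complex V was lower in atria for 12 of its 15 tested genes. *Atp5a1*, the alpha subunit of the catalytic head, read 2.17, 2.29, 2.55 and 2.69 in LA, 2.12, 2.19, 2.23 and 2.3 in RA, 2.17, 2.25, 2.27 and 2.41 in SA, 2.52, 2.57 and 3.09 in LV, and 2.93, 2.96, 3.02 and 3.1 in RV. RV lay above all atrial and SA arrays, while LV replicates 1 and 2 overlapped LA. The difference of atria from V was -0.55 ± 0.08 (limma, adjusted p = 1.96e-05), and -0.43 ± 0.08 after quantile normalization. *Atp5c1*, the gamma subunit that forms the turning shaft, read 3.34, 3.53, 3.55 and 3.76 in LA, 3.48, 3.49, 3.5 and 3.59 in RA, 3.57, 3.59, 3.81 and 3.82 in SA, 3.91, 4.08 and 4.27 in LV, and 3.93, 4.05, 4.06 and 4.11 in RV. No atrial array reached a ventricular one, with a difference of -0.53 ± 0.06 (limma, adjusted p = 1.06e-06) and of -0.25 ± 0.06 after quantile normalization. *Atp5o*, part of the peripheral stalk, had nearly the same difference under both scalings. It read 1.2, 1.39, 1.4 and 1.51 in LA, 1.25, 1.31, 1.35 and 1.38 in RA, 1.24, 1.39, 1.4 and 1.44 in SA, 1.63, 1.67 and 1.81 in LV, and 1.65, 1.66, 1.7 and 1.85 in RV. The ventricles were above all other arrays, with differences of -0.36 ± 0.05 (limma, adjusted p = 5.18e-06) and -0.38 ± 0.05.

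*Atp5g1*, *Atp5g2* and *Atp5g3* encode the same mature c subunit of the membrane ring. *Atp5g1* read 3.62, 4.23, 4.25 and 4.31 in LA, 3.94, 4.07, 4.19 and 4.38 in RA, 3.64, 4.08, 4.37 and 4.42 in SA, 4.58, 4.62 and 4.78 in LV, and 4.35, 4.41, 4.42 and 4.58 in RV. LV lay at or above all other arrays and RV shared its range with RA and SA, while LA replicate 1 and SA replicate 1 were the lowest. *Atp5g1* differed between atria and V by -0.43 ± 0.12 (limma, adjusted p = 0.00411), *Atp5g3* by -0.43 ± 0.16 (adjusted p = 0.0295) and *Atp5g2* by -0.12 ± 0.05 (adjusted p = 0.0738). After quantile normalization none of the 3 was called, with -0.07 ± 0.03, -0.02 ± 0.07 and -0.01 ± 0.04. *Atp5b*, the beta subunit of the catalytic head, differed by -0.39 ± 0.15 (adjusted p = 0.0359), and by -0.03 ± 0.07 after quantile normalization (adjusted p = 0.731). Without LV replicate 3, *Atp5b* (-0.33, adjusted p = 0.0842) and *Atp5g3* (-0.334, adjusted p = 0.086) lost the call. Both also lost it without LA replicate 1, RA replicate 2 or RV replicate 3, and *Atp5b* without RA replicate 3. *Atp5d* (-0.17 ± 0.07) and *Atp5e* (-0.04 ± 0.04), the delta and epsilon subunits, did not pass the test. Without LV replicate 3, *Atp5d* (-0.195, adjusted p = 0.0399) and *Atp5g2* (-0.145, adjusted p = 0.0353) passed it. Scaled by median and median absolute deviation, *Atp5d* (limma, adjusted p = 0.00834), *Atp5e* (0.009) and *Atp5g2* (0.00757) were lower, as were nearly all tested genes.

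SA was lower than V for 32 of the 41 genes and higher for 0, against 23.1% lower and 32.2% higher among all genes. The median difference was -0.41 over the 41 genes and 0.04 over all. The largest differences were those of *Cox7a1* (-0.63 ± 0.14), *Atp5a1* (-0.59 ± 0.10), *Uqcrc1* (-0.59 ± 0.09), *Uqcrb* (-0.58 ± 0.09), *Cyc1* (-0.52 ± 0.06) and *Atp5pb*, a peripheral stalk subunit (-0.52 ± 0.08), with limma adjusted p between 2.2e-06 and 0.00124. After quantile normalization 22 genes were lower and 2, *Cox8a* and *Uqcr10*, were higher, while 27.8% of all genes were lower and 29% higher. Of the 258 other genes with a mean score above 3, 57.4% were lower and 9.3% higher by the z-scores, and 31.4% lower and 29.8% higher after quantile normalization. After that scaling *Cox7a1* differed by -0.21 ± 0.05 (adjusted p = 0.00273), *Atp5a1* by -0.49 ± 0.10 and *Uqcrc1* by -0.30 ± 0.04. *Uqcrb* differed by -0.41 ± 0.05, *Cyc1* by -0.30 ± 0.04 and *Atp5pb* by -0.27 ± 0.04. *Cox7a2*, the general partner of *Cox7a1*, was also lower, at -0.274 ± 0.08 (limma, adjusted p = 0.00714) and -0.291 ± 0.08 under the 2 scalings. The pair *Cox7a1* minus *Cox7a2* did not pass (-0.355 ± 0.18, adjusted p = 0.107), and was 0.0826 after quantile normalization (0.341). Nor did *Cox6a2* minus *Cox6a1* (-0.373 ± 0.18, adjusted p = 0.0941). By complex, 3 of 3 genes of complex II, 6 of 7 of complex III, 10 of 15 of complex IV and 13 of 15 of complex V were lower by the z-scores. Of the 11 genes with a mean score of 3 or less, 7 were lower under both scalings. *Cox7a2l* was lower by the z-scores only (adjusted p = 0.0483, and 0.86 after quantile normalization), a call that was lost without LV replicate 3 (adjusted p = 0.0754), and *Cox6b2* was lower after quantile normalization only (adjusted p = 0.101 and 0.0166). *Uqcrb*, a small subunit of complex III, read 2.95, 3.12, 3.18 and 3.38 in LA, 2.95, 2.97, 2.99 and 3.22 in RA, 2.65, 2.93, 2.96 and 2.99 in SA, 3.32, 3.35 and 3.47 in LV, and 3.39, 3.45, 3.67 and 3.67 in RV. All SA arrays were below all ventricular ones. Leaving out each array in turn gave 27 to 35 called genes. This comparison and that of atria with V share the ventricular arrays. Cell type markers moved between SA and V as well: 8 of 11 tested cardiomyocyte genes, 4 of 4 of endothelium and 2 of 2 of red blood cells were lower in SA. Higher in SA were 6 of 6 of white and common fat (median 2.30), 5 of 5 of smooth muscle, 5 of 6 of fibroblasts, 4 of 4 of neurons, 2 of 2 each of leukocytes and fast skeletal muscle, and the airway gene *Scgb1a1*, whose uneven SA values are given below. These counts are of tested genes, and some, such as *Plin1*, *Lep*, *Tagln* and *Gap43*, passed the filter through SA arrays only. The counts are therefore partly set by the filter. On the array were 8 fat, 6 smooth muscle, 6 neuronal and 4 leukocyte genes of these lists. Of 4 tested genes of the brown fat list, *Ucp1* was higher, at -0.59 to 1.05 in SA, and 2, *Cpt1b* and *Ppara*, were lower. The part of these cell types in the lower scores of SA was not tested.

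Between SA and RA, 0 of the 41 genes passed the test by limma (3 at an unadjusted p under 0.05), while 9.2% of all genes were higher and 9% lower in SA. The median difference was -0.02. After quantile normalization 5 passed, while 22.7% of all genes did, a larger share than that of the 41: *Sdhb* (0.25 ± 0.07), *Uqcrc1* (0.18 ± 0.05) and *Cyc1* (0.15 ± 0.05) were higher in SA, and *Atp5g2* (-0.20 ± 0.06) and *Uqcrb* (-0.19 ± 0.06) were lower. By the z-scores these genes differed by 0.23 ± 0.08, 0.16 ± 0.10, 0.14 ± 0.07, -0.17 ± 0.07 and -0.15 ± 0.10, in the same order. Between SA and LA, 3 genes were lower in SA and 0 higher, against 9.54% and 11% of all genes: *Cox7a2* (-0.33 ± 0.09), *Uqcrb* (-0.28 ± 0.10) and *Atp5e* (-0.24 ± 0.06), with limma adjusted p of 0.0124, 0.0491 and 0.00598. *Atp5e* did not overlap, at 0.99 to 1.18 in SA and 1.20 to 1.46 in LA, and these calls stayed after quantile normalization, which gave 7 lower genes while 25.9% of all genes passed in one direction or the other. *Uqcrb* lost its call in 14 of the 19 fits that leave out an array, and when genes had to be above 0 on at least 4 arrays (adjusted p = 0.0509). Markers of several cell types differed between SA and the atria. All 6 tested genes of white and common fat and all 5 tested genes of smooth muscle exceeded RA and LA past the threshold. Some of them, such as *Plin1*, *Lep*, *Tagln* and *Lmod1*, were above 0 on SA arrays only, so the filter partly set these counts. The same holds for *Prph* and *Gap43* of the neuronal list. The mean of the 8 fat genes on the array was 0.71 to 1.05 in SA and -0.385 to -0.044 in the atria, and that of the 6 smooth muscle genes 0.72 to 1.15 in SA and -0.057 to 0.23 in the atria. Endothelial genes were lower in SA in 3 of 4 against either atrium, with list means of 0.68 to 0.79 in SA and 0.88 to 1.11 in the atria. Neuronal genes were higher in 1 of 4 against RA and 4 of 4 against LA, brown fat genes in 2 of 4 against either, and the airway gene *Scgb1a1* was higher than in RA by 2.01 ± 0.55. It read -0.49, 0.72, 0.93 and 3.97 in SA and -0.85 to -0.63 in RA. The value of 3.97 was that of SA replicate 2, and SA replicate 1, at -0.49, equalled LV replicate 3. The lung genes *Sftpb* and *Sftpc* of the same list were below 0 on all 19 arrays. No cardiomyocyte gene passed in either direction, with medians of 0.03 against RA and 0.05 against LA, and after quantile normalization 2 of 11 were higher than in RA. The part of these cell types in the results was not tested.

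LA and RA differed in 0 of the 41 genes by limma (4 at an unadjusted p under 0.05), against 2.1% higher and 2.64% lower among all genes. After quantile normalization *Sdhb* (0.28 ± 0.07) and *Atp5pb* (0.16 ± 0.04) were higher in LA, when 6.25% of all genes passed. LV and RV differed in 2 genes, both lower in LV, against 1.82% of all genes lower and 1.67% higher. *Sdhd* read 1.38, 1.48, 1.8 and 1.82 in LA, 1.29, 1.33, 1.38 and 1.39 in RA, 1.27, 1.31, 1.65 and 1.66 in SA, 1.37, 1.55 and 1.55 in LV, and 1.89, 2.0, 2.07 and 2.37 in RV. The 4 RV arrays were above all others, LV lay among the atrial values, and LV was lower than RV, at -0.59 ± 0.12 (limma, adjusted p = 0.0168). After quantile normalization the difference was -0.55 ± 0.12 (adjusted p = 0.0163). The z-score call was lost without LV replicate 2 (adjusted p = 0.0616), without RV replicate 4 (0.053), and when the arrays were scaled by their median and median absolute deviation (0.207). *Atp5e* read 1.2, 1.33, 1.36 and 1.46 in LA, 1.07, 1.1, 1.16 and 1.23 in RA, 0.99, 1.09, 1.12 and 1.18 in SA, 1.07, 1.17 and 1.23 in LV, and 1.33, 1.4, 1.41 and 1.43 in RV. LV was below RV on all arrays, at -0.24 ± 0.06 (limma, adjusted p = 0.0459), a call lost in 12 of the 19 fits that leave out an array, after quantile normalization (adjusted p = 0.0902) and with the replicate number as a block (adjusted p = 0.0932). With 3 LV arrays from ventricles that were cut into pieces, the number of arrays limits what this comparison can show.

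**Figure D5:**
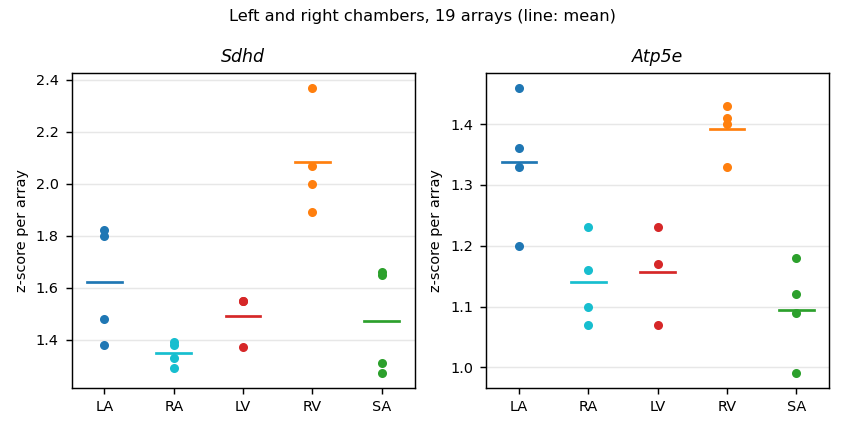
z-scores per array (y axis) of *Sdhd* and *Atp5e* in 5 regions, 19 arrays, with a line at the region mean. For *Sdhd* the 4 RV arrays (1.89 to 2.37) lie above all others, and for *Atp5e* LA and RV lie above RA and LV in their means.

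Other genes of mitochondrial energy supply were lower in atria than in V as well. Complex I, the NADH dehydrogenase, was represented by genes starting with Ndufa, Ndufb, Ndufc, Ndufs or Ndufv, a few of them assembly factors and 1 a pseudogene: 31 of 39 tested were lower and 1 higher, with a median difference of -0.39, and 28 and 0 after quantile normalization. Of 11 tested genes of mitochondrial mass and carriers 8 were lower, among them *Cs*, which encodes citrate synthase (-0.61 ± 0.06). Of 19 tested assembly factors of complexes II to V, 13 were lower and 1, *Cox19*, was higher (0.13 ± 0.05). The largest of them was *Lrpprc*, which stabilises the mitochondrial mRNAs of complex IV (-0.74 ± 0.04). Of 14 tested regulators of mitochondrial genes, 1, the muscle transcription factor *Mef2c*, was higher (0.24 ± 0.05) and 8 were lower, including *Ppargc1b* (-0.56 ± 0.08) and *Ppargc1a* (-0.18 ± 0.07), coactivators of mitochondrial biogenesis. After quantile normalization 7 of 11 mass genes were lower and 1 higher, 11 of 19 assembly factors lower and 1 higher, and 10 of 14 regulators lower and 1 higher.

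Markers of heart muscle itself moved the same way. All 11 tested cardiomyocyte genes were lower in atria than in V, with a median difference of -0.37, and 6 after quantile normalization. The mean of these genes was 2.75 to 3.18 in LA, 3.0 to 3.25 in RA, 2.79 to 3.33 in SA, 3.5 to 3.7 in LV and 3.33 to 3.53 in RV, so that the ventricles lay above all other arrays. Fibroblast markers went the other way, with 5 of 6 higher in atria (median 0.45), and 4 after quantile normalization, as did white and common fat with 4 of 6 higher. Smooth muscle genes were lower in 4 of 5 (median -0.25), brown fat genes in 3 of 4 (median -0.44) and red blood cell genes in 2 of 2, and endothelial genes were higher in 2 and lower in 2 of 4. The 3 lower genes of the brown fat list were *Cidea*, *Cpt1b* and *Ppara*. *Ucp1* read -0.85 to -0.72 in the atria and -0.85 to -0.79 in the ventricles, so this count cannot be read as less brown fat in atria. Neuronal genes were higher in 1 of 4, and leukocyte and fast skeletal muscle genes in 1 of 2 each. In RNA from whole tissue a smaller share of muscle cells and less of these transcripts per muscle cell cannot be told apart, and the part of cell makeup in the lower scores of the 30 genes was not tested.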

How the data were processed

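Total RNA of 5 mouse heart regions, 4 samples each, was hybridised to Illumina MouseRef-8 v2 arrays and read out with BeadStudio and GenomeStudio 2011.1, per the labels. The authors deposited 1 score per probe and array: over the 25697 probes of each array the deposited scores have mean 0 and SD 1, to 2 decimals. How they were made is not given in the sources used here. The methods describe log2 intensities with aligned medians for 18 arrays, 2 of them LV, without naming these 2. Bead signal over background and detection were not used here, so dim and absent transcripts were not separated.

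Probes were named by the platform annotation (23978 probes with 1 gene, 1719 with none), which covers 16593 genes. Where a gene had several probes, the one of highest mean was used, LV replicate 4 not counted, and 8 of the 47 genes had several probes. Genes above 0 on at least 1 array (7618) entered limma 3.58.1 in R 4.3.3, with 1 mean per region, empirical Bayes variances and Benjamini-Hochberg adjustment over all genes, at a threshold of 0.05. Of differences added to simulated data for atria versus V (7618 genes, 50 genes per size), 66% of those of 0.2, 92% of those of 0.4 and 100% of those of 0.8 and 1.6 were called. The simulated noise was independent between genes and arrays, with no shift shared by the genes of an array, and the other genes had no difference. These rates may therefore not hold for the real arrays. The alternatives were all 20 arrays, leaving out LV replicates 3 and 4, each array left out, quantile normalization, median and median absolute deviation scaling, the mean of all probes of a gene, no filter, a filter of above 0 on at least 4 arrays, and a replicate block. Another 2 settings were added after the data were seen: leaving out LA replicate 1 and SA replicate 1, and quantile normalization without LV replicates 3 and 4.

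The genes, pairs and lists were chosen with earlier results of these data known. Genes given with values were the isoform pairs, the c subunit genes, *Uqcrc1*, *Cyc1*, *Cycs*, the *Sdh* genes and, in each comparison and direction, up to 6 genes with the largest difference past the threshold. Other genes, among them *Atp5o*, *Cox7b*, *Cox7a2l*, *Uqcr10*, *Atp5d*, *Atp5b*, *Cs*, *Lrpprc*, *Mef2c* and *Scgb1a1*, were chosen after their values were seen.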

Additional observations from a re-analysis of the deposited data

Results flagged for a closer look

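Over 164 groups of 4 arrays (41 genes in the 4 regions with 4 arrays used), 19 had 1 array far from the other 3. The 41 genes share the same arrays, so the groups are not independent and no chance rate applies to this count. The share over all genes was not counted. In LA, replicate 1 was the low array for 12 genes: *Atp5g1* at 3.62, *Atp5g3* at 3.45, *Atp5j* at 3.59, *Atp5l* at 2.93, *Cox5b* at 3.58, *Cox6a2* at 3.5, *Cox6b1* at 3.59, *Cox7c* at 3.7, *Cox8b* at 3.59, *Sdhc* at 3.08, *Uqcr10* at 3.66 and *Uqcr11* at 3.47. The highest score of this array, 3.74, was the lowest of the 19. RV replicate 3 was high for *Atp5b* at 4.68, *Atp5d* at 3.49 and *Atp5g3* at 4.76. RA replicate 1 was high for *Atp5pb* at 3.49, *Cox5a* at 4.15 and *Uqcrb* at 3.22, and RV replicate 2 was low for *Atp5pb* at 3.65.

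The difference between left and right was not the same in atria and ventricles for 2 genes. For *Sdhd* LA minus RA was 0.273 and LV minus RV was -0.592, and the difference of these was 0.865 (limma, adjusted p = 0.00422). For *Atp5e* they were 0.198 and -0.236, with a difference of 0.433 (limma, adjusted p = 0.0047). Among all genes tested, 6.01% passed this test.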

How the results depend on the processing

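Calls were counted among the 41 genes. Percentages in brackets are the share of all genes tested that passed in the same fit. With LV replicate 4 (all 20 arrays), 0 genes were called over the regions (9.42%), in atria versus V (11.4%), SA versus LA (1.35%), SA versus V (7.7%) and LV versus RV (0.0187%). The pairs *Cox6a2* minus *Cox6a1* and *Cox7a1* minus *Cox7a2* differed between atria and V by -0.399 (adjusted p = 0.113) and -0.381 (0.186) with all 20 arrays. Atria versus V then turned for *Atp5d* (0.225), *Atp5g1* (0.00125), *Atp5g2* (0.251), *Atp5h* (0.0875), *Atp5l* (0.112), *Atp5mpl* (0.0138), *Atp5pb* (0.035), *Cox7a2* (0.242), *Cox7a2l* (0.311), *Cox8a* (-0.244), *Uqcr10* (0.06) and *Uqcrb* (0.0138), SA versus V for *Cox8a* (-0.25) and LV versus RV for *Atp5e* (0.352). Quantile normalization called 18 genes in atria versus V (60.7%), 5 in SA versus RA (22.7%), 7 in SA versus LA (25.9%), 2 in LA versus RA (6.25%) and 1 in LV versus RV (4.73%), and gave pair differences of -0.101 and -0.062. It turned *Atp5d* (0.0515), *Cox6a2* (0.0195), *Cox7a2l* (0.083) and *Uqcr10* (0.0544) in atria versus V, and *Cox6a2* (0.0382) and *Cox7a1* minus *Cox7a2* (0.0826) in SA versus V. Without LV replicates 3 and 4, SA versus RA called 1 gene (20%), *Cox6a2* minus *Cox6a1* was -0.321, and *Cox8b* turned to -0.488 in atria versus V and -0.625 in SA versus V, as did *Cox8b* minus *Cox8a* (-0.564). Quantile normalization of those 18 arrays, chosen after the data were seen, called 5 genes in SA versus RA (24.4%), 8 in SA versus LA (28.3%), 21 in SA versus V (56.4%) and 3 in LA versus RA (6.97%). Its pair differences were -0.0851 and -0.0881, and it turned *Atp5d* (0.0101), *Atp5g3* (6.94e-05), *Cox6a2* (0.0139), *Cox7a2l* (0.0757), *Uqcr10* (0.0521), *Uqcrh* (0.00066), *Cox8b* (-0.173) and *Cox8b* minus *Cox8a* (-0.435) in atria versus V, and *Cox6a2* (0.0323), *Cox8b* (-0.307) and *Cox7a1* minus *Cox7a2* (0.0601) in SA versus V. Scaling by median and median absolute deviation called 0 genes in SA versus LA (7.55%) and LV versus RV (0.433%). Its differences are in units of the median absolute deviation, with *Uqcrc1* at -3.13 in atria versus V, and cannot be set against z-score differences. In atria versus V it called *Cox6a1* and 7 further genes lower: *Atp5d*, *Atp5e*, *Atp5g2*, *Cox6a2*, *Cox7a2*, *Cox7a2l* and *Cycs*. Together with those called by the z-scores, every tested gene except *Cox6b2*, *Cox8a* and *Cox8b* was then lower. The share of all genes called there is not stated. This scaling turned *Cox6a1* (-0.984 and -0.93), *Cox8a* (-1.12 and -1.08) and *Cox8b* (-0.53 and -0.774) in atria versus V and SA versus V, and *Cox6a2* minus *Cox6a1* in SA versus RA (0.052). No filter gave 1 gene in SA versus RA (9.7%) and 1 in LV versus RV (1.4%). Without LA replicate 1 and SA replicate 1, also chosen after the data were seen, 2 genes were called in SA versus RA (16.8%) and 1 in SA versus LA (13.9%), and *Cox6a2* minus *Cox6a1* was 0.205 in SA versus RA. The cause of these changes was not tested.

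With each array left out in turn, 28 to 31 genes were called over the regions, 28 to 33 in atria versus V, 0 to 1 in SA versus RA, 2 to 4 in SA versus LA, 27 to 35 in SA versus V, 0 to 2 in LA versus RA and 0 to 2 in LV versus RV. *Cox6a2* minus *Cox6a1* ran from -0.453 to -0.276 in atria versus V and from -0.125 to 0.205 in SA versus RA, and *Cox7a1* minus *Cox7a2* from -0.562 to -0.377 and from -0.0458 to 0.241. Differences that changed sign were those of *Cox6a1* (-0.00167 to 0.0533) and *Cox7a2* (-0.0529 to 0.0271) in atria versus V, *Cox6a1* (-0.0138 to 0.0829) and *Cox8a* (-0.005 to 0.125) in SA versus V, *Cox8b* (-0.488 to 0.78 and -0.625 to 0.642) in both, and *Cox8b* minus *Cox8a* (-0.564 to 0.726) in atria versus V, the *Cox8b* values turning without LV replicate 3.

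Replicate numbers are shared across regions, and the titles give LV and RV the same numbers, which are not consecutive, without saying what a number marks. In the atria the title numbers equal the replicate numbers, in the ventricles they do not, and the SA titles carry letters. The replicate block therefore joined atrial and ventricular arrays of different title numbers, and what it removed is not known. Deviations of same-numbered arrays correlated at -0.26, 0.24, 0.40 and 0.42 between LA and RA and at 0.21, 0.18 and 0.016 between LV and RV. In 5 of these 7 pairs the value was over 0.1 and above that of the left array with every right array of another number, a hint from the data and not from the design, and in the pair of LA 1 with RA 1 and that of LV 3 with RV 3 it was not, so the numbers were not taken as pairs. With the replicate block LV versus RV called 1 gene, when 1.9% of all genes passed. *Cox6a2* then passed in atria versus V (-0.365, adjusted p = 0.0489), *Cox6a2* minus *Cox6a1* passed in SA versus V (-0.399, adjusted p = 0.0497), and *Uqcrb* in SA versus LA (0.0623) and *Atp5e* in LV versus RV (0.0932) did not. The number of arrays limits the precision, and scores carry no measure of signal over background.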
